A study of Mus musculus with 16 samples.

Results

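The integrin subunits described here are 10 genes of mouse mast cells, chosen by name among the 39179 genes counted in each sample. They encode the α subunits α2 (Itga2), αIIb (Itga2b), α4 (Itga4), α5 (Itga5), αv (Itgav) and αE (Itgae), and the β subunits β1 (Itgb1), β2 (Itgb2), β3 (Itgb3) and β7 (Itgb7). Each of the 10 symbols matched 1 Ensembl gene. The RNA came from bone marrow-derived mast cells (BMMCs), which were grown for 4 weeks with stem cell factor and IL3 from the marrow of male C57BL/6 mice aged 8 to 10 weeks. The mice were PEP+/+ or PEP-/-, where PEP is the PEST-domain-enriched tyrosine phosphatase encoded by Ptpn22. All 16 samples were sensitized with IgE for 3 h, so no sample is without IgE. IgE alone, IgE DNP (the antigen DNP, a dinitrophenyl-albumin conjugate, at 200 ng/ml for 1 h), IgE DEX (the glucocorticoid dexamethasone at 1e-07 M for 8 h) and IgE DNP DEX are the 4 treatments, with 2 samples of each per genotype. The labels give the IgE dose as 0.05 µg/ml, while the study's methods state another dose. The sources used here do not say how many mice gave marrow, so p-values measure the spread between these samples.

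Integrins are heterodimers of an α and a β subunit that span the membrane and bind extracellular matrix or counter-receptors on other cells. Their affinity is set from inside the cell by talin and kindlin, which bind the β subunit tail. Mast cells carry integrins that hold them in tissue: α5β1 is a fibronectin receptor, αvβ3 a vitronectin receptor, αIIbβ3 a fibrinogen receptor best known from platelets, α4β7 binds MAdCAM-1 and αEβ7 binds E-cadherin. α4β1 binds VCAM-1, α2β1 binds collagen, and β2 pairs with αL, αM, αX or αD on leukocytes. Only transcripts were measured, not surface proteins.

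Gene counts summed to between 8612531 and 22143526 reads in a sample. The labels number 1 sample of each condition (called replicate 1 here) and give the other a letter (replicate 2). The sets differed in all 8 conditions for some members, and a fit with the set as a term (the replicate block) is given where it changes a call. Ptpn22 had 130 to 2799 reads in PEP+/+ samples and 0 to 55 in PEP-/- samples. The 11 mast cell markers summed to 63210 to 103800 CPM (counts scaled to a common library size by TMM), while those of neutrophils (0 to 2.37 CPM), T and NK cells (0.637 to 3.47 CPM), B cells (0 to 0.826 CPM) and stromal cells (0.0867 to 5.65 CPM) were near 0. Fkbp5 and Tsc22d3 were higher in each sample with DEX, and Tnf and Il13 in each sample with DNP, than in the samples without DEX or DNP that were otherwise treated alike. Changes are log2 fold changes with their standard error (SE) from edgeR's quasi-likelihood test over all 16 samples, called at a Benjamini-Hochberg adjusted p under 0.05 over 13305 tested genes.

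To compare the subunits with each other, CPM was divided by the length of the annotated exons in kb. Itga2b was the most abundant member, with a mean of 531 CPM per kb over the 16 samples, and Itgb7 followed with 262 CPM per kb. They held ranks 1 and 2 in 8 of 8 conditions without overlapping each other, at the percentiles 99.4 and 98.7 of all tested genes. Itgb3 (43.6 CPM per kb), Itga5 (33.4), Itgb1 (32.1) and Itgb2 (22.1) formed the middle of the order. Itgae (4.79), Itgav (3.81) and Itga4 (2.66) lay below them, and Itga2 (0.0317) was last in 8 of 8 conditions. The order of the middle members moved with treatment. After IgE it was Itgb1, Itgb2, Itgb3 and Itga5 in both genotypes, after IgE DNP Itga5 came to rank 3, and after IgE DEX Itgb3 did. In PEP+/+ cells the ranges of Itgb3 and Itga5 overlapped after IgE, and those of Itga5 and Itgb1 after IgE DNP. After IgE DNP DEX, Itgb3 and Itga5 held ranks 3 and 4 with overlapping ranges, so these neighbours did not differ beyond their spread in either genotype. Itgae, Itgav and Itga4 exchanged ranks 7 to 9, and in each of the 8 conditions but PEP+/+ IgE DEX and PEP+/+ IgE DNP DEX at least 1 pair of neighbours among them overlapped.

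**Figure D1:**
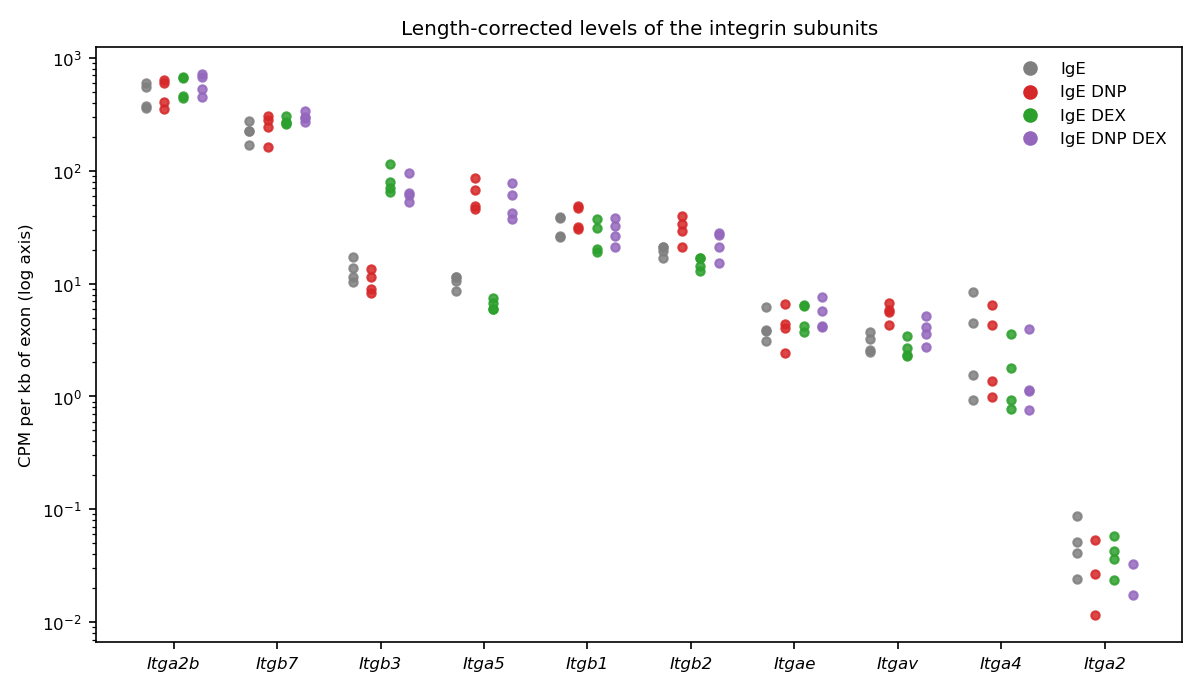
Levels of the 10 integrin subunits in CPM per kb of exon on a log axis, ordered by their mean over the 16 samples, with 1 point per sample and colours for the 4 treatments. Itga2b and Itgb7 stand above the rest throughout, Itgb3 and Itga5 change place with treatment, and the 3 Itga2 samples without a read cannot be drawn on this axis.

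The collagen receptor subunit Itga2 (ENSMUSG00000015533, chromosome 13, 114833081 to 114932100, minus strand, GRCm38) had 0 to 12 reads per sample. It was below the minimum for testing, so 9 of the 10 members were tested. In the 3 samples without a read, 3 counts would correspond to 0.286 to 0.391 CPM, and the highest level in any sample was 0.617 CPM. These limits cover counting error only, and no difference in Itga2 was detectable at this depth.

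The samples that shared a set resembled each other for several members. Itga4, the α subunit of the VCAM-1 and MAdCAM-1 receptors, was higher in replicate 1 than in replicate 2 in 8 of 8 conditions, by 1.48 to 5.31 times with a median of 3.95. Itgb1 was also higher in replicate 1 in 8 of 8 conditions, by 1.22 to 1.82 times. Itga2b was lower in replicate 1 in 8 of 8 conditions, at 0.555 to 0.787 times its level in replicate 2. Over all tested genes, 20.4% were higher and 17.8% lower in replicate 1 in every condition. Reads counted to no annotated feature (the no_feature class) made 4.69% to 7.18% of replicate 1 samples and 8.35% to 10.98% of replicate 2 samples. Whether these reads lie within or outside genes was not examined. Ambiguous reads and reads with several alignments count in the totals of these shares, not among the reads without a feature. The part of the reads without a feature in these differences was not tested.

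**Figure D2:**
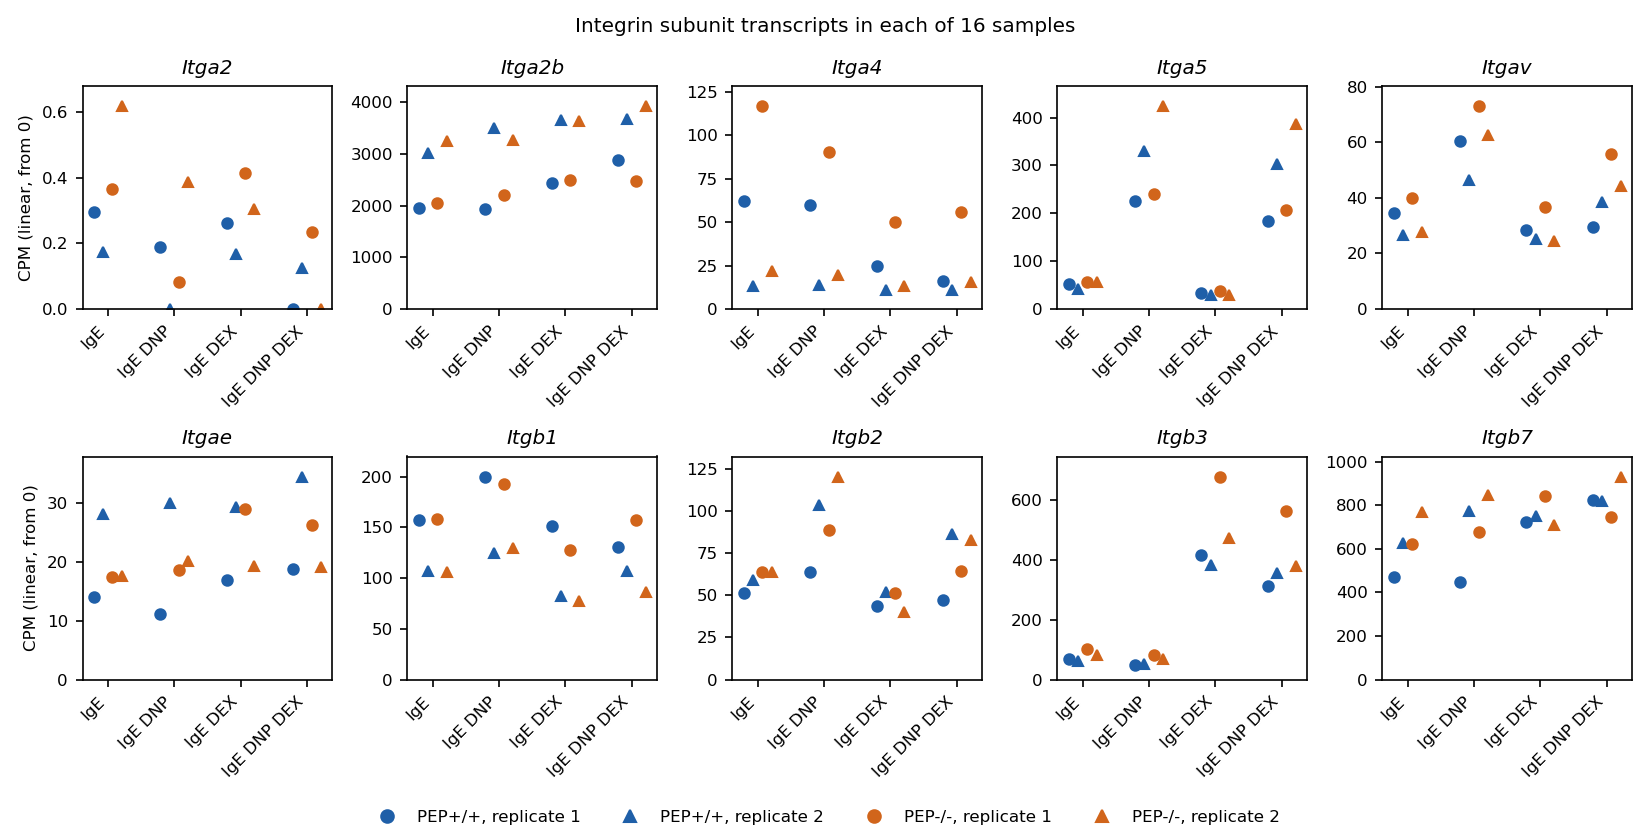
CPM of each integrin subunit in all 16 samples on linear axes that start at 0, by treatment, with PEP+/+ in blue, PEP-/- in orange, circles for replicate 1 and triangles for replicate 2. Itga5 is high in both treatments with DNP and Itgb3 in both treatments with DEX, while Itga4, Itga2b and Itgb1 separate by replicate.

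Antigen raised Itga5 most among the members. Comparing IgE DNP with IgE asks what cross-linking of the IgE receptor does to these transcripts within 1 h. Averaged over the genotypes, 2 of the 9 tested members rose, Itga5 and Itgav, and none fell. Of all tested genes, 16.7% were called, 9.07% as higher and 7.58% as lower. The members' median log2 fold change was 0.14, against -0.0007 over all tested genes.

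The sequences next to the starts of both genes are shown because these are the members that rose together. RefSeq start sites on GRCm38.p6 were listed for 7 of the 10 members, not for Itgae, Itgb2 and Itgb3. The 250 bases before the start of Itga5 (chr15:103366792-103367041, minus strand) and of Itgav (chr2:83724147-83724396, plus strand) read as follows, 5′ to 3′ on the strand of the gene, with matches to any searched motif in capitals.
Itga5: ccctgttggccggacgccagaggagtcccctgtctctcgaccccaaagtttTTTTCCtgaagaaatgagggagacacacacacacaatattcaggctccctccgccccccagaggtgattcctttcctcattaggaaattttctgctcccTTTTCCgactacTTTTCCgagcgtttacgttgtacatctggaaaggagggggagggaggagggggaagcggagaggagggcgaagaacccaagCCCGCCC
Itgav: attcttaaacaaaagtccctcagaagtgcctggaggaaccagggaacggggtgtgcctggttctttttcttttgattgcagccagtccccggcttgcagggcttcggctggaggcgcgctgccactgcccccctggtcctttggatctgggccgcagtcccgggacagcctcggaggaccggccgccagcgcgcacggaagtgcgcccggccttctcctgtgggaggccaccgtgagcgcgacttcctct
The capitals in Itga5 are 3 matches to GGAAAA, letters of the NFAT site, on the opposite strand (from -199, -100 and -88 relative to the start), and 1 match to GGGCGGG, letters of the SP1 site, on the opposite strand from -7 to -1. Of 32851 listed starts, 20.4% hold the former and 23.4% the latter in the same 250 bases on either strand. The Itgav window held none of the 9 searched motifs. The other 7, searched on both strands, begin with TGANTCA for AP-1 factors, found in 6.75% of all windows, and TGACGTCA for CREB, found in 1.55%. The letters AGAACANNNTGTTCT of the glucocorticoid response element were found in 0.00913%, and its last letters, TGTTCT, which the whole element holds, in 16.1%. The letters AGATAA for the GATA factors were found in 9.99%, CCGGAA for the ETS factors in 12.03% and GCGTGGGCG for the EGR factors in 0.536%. A match is a description of letters and not a site.

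Itga5 (ENSMUSG00000000555, chromosome 15, 103344286 to 103366763, minus strand) encodes the α subunit that pairs only with β1. After IgE its level was 51.5 and 42.7 CPM in PEP+/+ replicates 1 and 2, and 56.2 and 56.5 CPM in PEP-/- replicates 1 and 2. After IgE DNP it was 226 and 330.2 CPM in PEP+/+ and 239.8 and 424 CPM in PEP-/- samples. Each of the 4 samples with DNP lay above each of the 4 samples without it. The change was 2.56 (SE 0.27, adjusted p = 6.78e-05, edgeR), which is 5.89-fold, and it was higher in 4 of 4 same-numbered pairs. Of all tested genes, 11.6% separated without overlap in the same direction.

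Itgav (ENSMUSG00000027087, chromosome 2, 83724397 to 83806916, plus strand) encodes an α subunit that pairs with β1, β3 and other β subunits. Its level after IgE was 34.5 and 26.5 CPM in PEP+/+ and 40.1 and 27.8 CPM in PEP-/- replicates 1 and 2. After IgE DNP it was 60.3 and 46.6 CPM in PEP+/+ and 73.0 and 62.6 CPM in PEP-/- samples. All samples with DNP were above all without it, with a change of 0.90 (SE 0.19, adjusted p = 0.00791, edgeR), or 1.87-fold. Itgav shares 634 bases of exon with the opposite-strand genes Gm13684 and Dnmt3l-ps1, which had 0 to 8 and 0 to 3 reads.

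Itgb2 and Itgb1 did not pass the threshold for DNP in the fit without the replicate block and passed it with the block, under which 4 members rose and 37.9% of all tested genes were called (18.6% higher, 19.3% lower). For Itgb2, the β subunit of the leukocyte integrins, levels after IgE were 51.2 and 59.2 CPM in PEP+/+ and 63.8 and 63.9 CPM in PEP-/- replicates 1 and 2. After IgE DNP they were 63.9 and 103 CPM in PEP+/+ and 88.6 and 120.1 CPM in PEP-/- samples. The lowest sample with DNP stood barely above the highest without it, and the change was 0.65 (SE 0.22, adjusted p = 0.0669 without and 0.00447 with the block, edgeR). Without the block, Itgb2 was also called by DESeq2 (adjusted p = 0.0343) and by edgeR with no filter on low counts (adjusted p = 0.0212). In the fit without a filter Itgb2 had an SE of 0.21, against 0.20 for Itgb1 and 0.22 for Itgav. That call thus hardly weighs the spread of Itgb2 itself. With 1 sample left out at a time its change ranged from 0.45 (without PEP+/+ IgE DNP replicate 2, adjusted p = 0.259) to 0.79 (without PEP+/+ IgE DNP replicate 1, adjusted p = 0.0393), and it was called in 1 of 8 such fits. Itgb1, the partner of α2, α4, α5 and αv, changed by 0.29 (SE 0.29, adjusted p = 0.619 without and 0.0361 with the block), with overlapping levels of 106 to 158 CPM after IgE and 125 to 199.8 CPM after IgE DNP.

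Under DEX, antigen again raised Itga5. Comparing IgE DNP DEX with IgE DEX, 1 of the 9 tested members was called, against 12.6% of all tested genes (7.19% higher, 5.42% lower). Itga5 levels were 33.0 and 29.4 CPM in PEP+/+ and 36.7 and 29.3 CPM in PEP-/- samples after IgE DEX. They reached 183 and 303 CPM in PEP+/+ and 207 and 387 CPM in PEP-/- samples after IgE DNP DEX, again without overlap. The change was 3.07 (SE 0.27, adjusted p = 4.64e-05, edgeR), or 8.37-fold. With the block, under which 37.6% of all tested genes were called (18.4% higher, 19.2% lower), Itgav (0.55, adjusted p = 0.00477) and Itgb2 (0.56, adjusted p = 0.0112) passed as well. Without the block these changes were 0.52 (adjusted p = 0.105) and 0.59 (adjusted p = 0.109). With 1 sample left out at a time, that of Itgb2 ranged from 0.35 (without PEP+/+ IgE DNP DEX replicate 2, adjusted p = 0.309) to 0.80 (without PEP+/+ IgE DNP DEX replicate 1, adjusted p = 0.0359), with a call in 1 of 8 such fits.

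The other members gave no call for DNP in either fit, with or without DEX. Itgb3 changed by -0.32 (95% interval -0.69 to 0.04) without DEX and was lower in 4 of 4 pairs, for which the share over all tested genes was not counted. For Itga2b the change was 0.09 (95% interval -0.53 to 0.70), for Itgb7 0.14 (-0.27 to 0.56), for Itgae 0.05 (-0.70 to 0.81) and for Itga4 -0.18 (-1.88 to 1.52). With the block the intervals were narrower, -0.59 to -0.05 for Itgb3 (adjusted p = 0.0575), -0.14 to 0.30 for Itga2b, -0.16 to 0.43 for Itgb7, -0.54 to 0.62 for Itgae and -0.61 to 0.33 for Itga4.

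DEX raised Itgb3, the only member called as higher in either fit. Comparing IgE DEX with IgE, 1 of the 9 tested members was called without the block, against 9.37% of all tested genes (5.40% higher, 3.98% lower). Itgb3 (ENSMUSG00000020689, chromosome 11, 104608000 to 104670476, plus strand) encodes the β subunit of αvβ3 and αIIbβ3. After IgE it stood at 67.2 and 61.3 CPM in PEP+/+ and at 101 and 81.9 CPM in PEP-/- replicates 1 and 2. After IgE DEX it stood at 414 and 382.5 CPM in PEP+/+ and at 676 and 471 CPM in PEP-/- samples. The groups were far apart, with the lowest sample with DEX above all samples without it. The change was 2.64 (SE 0.18, adjusted p = 3.88e-06, edgeR), or 6.23-fold, and 4 of 4 pairs were higher. Of all tested genes, 8.51% separated without overlap in this direction.

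With antigen present, Itgb3 levels were 49.2 and 52.9 CPM in PEP+/+ and 80.1 and 67.2 CPM in PEP-/- samples after IgE DNP. After IgE DNP DEX they were 313 and 357 CPM in PEP+/+ and 561.5 and 378 CPM in PEP-/- samples. The change was 2.69 (SE 0.18, adjusted p = 3.01e-06, edgeR), or 6.47-fold, again without overlap, and 1 of the 9 tested members and 10.7% of all tested genes (5.67% higher, 4.99% lower) were called. The contrasts with and without DNP use different samples for both groups, and the difference between them was 0.05 (SE 0.23, adjusted p = 0.9999, edgeR).

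Other members were called as lower with DEX in the fit with the replicate block and not in the fit without it. With it, 3 members were lower without DNP and 3 with DNP. Of all tested genes, 26.7% were then called without DNP (12.9% higher, 13.8% lower) and 33.3% with DNP (15.9% higher, 17.4% lower). Itga4 changed by -0.91 with the block (adjusted p = 0.0075) and by -1.10 without it (SE 0.78, adjusted p = 0.552), and was lower in 4 of 4 pairs. Its levels in PEP+/+ replicates 1 and 2 were 62.4 and 13.01 CPM after IgE and 24.8 and 10.9 CPM after IgE DEX, and in PEP-/- samples 117 and 21.6 CPM against 50.2 and 13.1 CPM. With no filter on low counts, Itga4 was called without the block as well (adjusted p = 2.75e-05 without and 9.96e-05 with DNP). Without DNP its change in that fit was -1.09 with an SE of 0.22, against an SE of 0.78 with the filter. Itgb3 and Itgb1 had SEs of 0.22 and 0.20 there, so this call does not weigh the spread of Itga4 between sets. The decrease was seen within each set, while the levels of the groups overlapped between sets. With DNP present the change of Itga4 was -0.80 with the block (adjusted p = 0.0161) and -1.04 without it (adjusted p = 0.495). With 1 sample left out at a time, the changes without the block ranged from -1.74 (without PEP-/- IgE DEX replicate 1) to -0.26 (without PEP-/- IgE replicate 1), and with DNP from -1.63 (without PEP-/- IgE DNP DEX replicate 1) to -0.28 (without PEP-/- IgE DNP replicate 1), with no call. Itga4 (ENSMUSG00000027009, chromosome 2, 79255426 to 79333123, plus strand) shares 1124 bases of exon with Cerkl on the opposite strand, which had 6 to 73 reads. The setting for strand in the counting is not given in the sources used here.

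Itga5 was lower after IgE DEX than after IgE in 4 of 4 pairs and without overlap, as were 7.10% of all tested genes. Its change was -0.68 (SE 0.26, adjusted p = 0.145) without and -0.67 (adjusted p = 0.0224) with the block. Without the block it was called with no filter on low counts (adjusted p = 0.0168) and in the fit of only the compared conditions (adjusted p = 0.0285). In the fit without a filter Itga5 had an SE of 0.20, against 0.20 for Itgb1 and 0.22 for Itgb3. That call thus hardly weighs the spread of Itga5 itself. With DNP present the change of Itga5 was -0.18 (95% interval -0.73 to 0.38, adjusted p = 0.762), with overlapping levels. Itgb1 changed by -0.27 without DNP (adjusted p = 0.764 without and 0.0423 with the block) and by -0.43 with DNP (adjusted p = 0.443 without and 0.00542 with the block). Itgav changed by -0.54 with DNP (adjusted p = 0.104 without and 0.00632 with the block) and by -0.16 without DNP (95% interval -0.59 to 0.26). No call in either fit was made for Itgb2 (-0.35 and -0.41), Itga2b (0.25 and 0.25), Itgae (0.30 and 0.30) or Itgb7 (0.29 and 0.28), without and with DNP. Itga2b was higher with DEX in 4 of 4 pairs in both comparisons, with blocked intervals of 0.04 to 0.48 (adjusted p = 0.0845) and 0.04 to 0.49 (adjusted p = 0.0615). Itga4, Itga5, Itgav, Itgb1 and Itgb2 were lower in 4 of 4 pairs in both. The share of all tested genes with 4 of 4 pairs in the same direction was not counted.

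**Figure D3:**
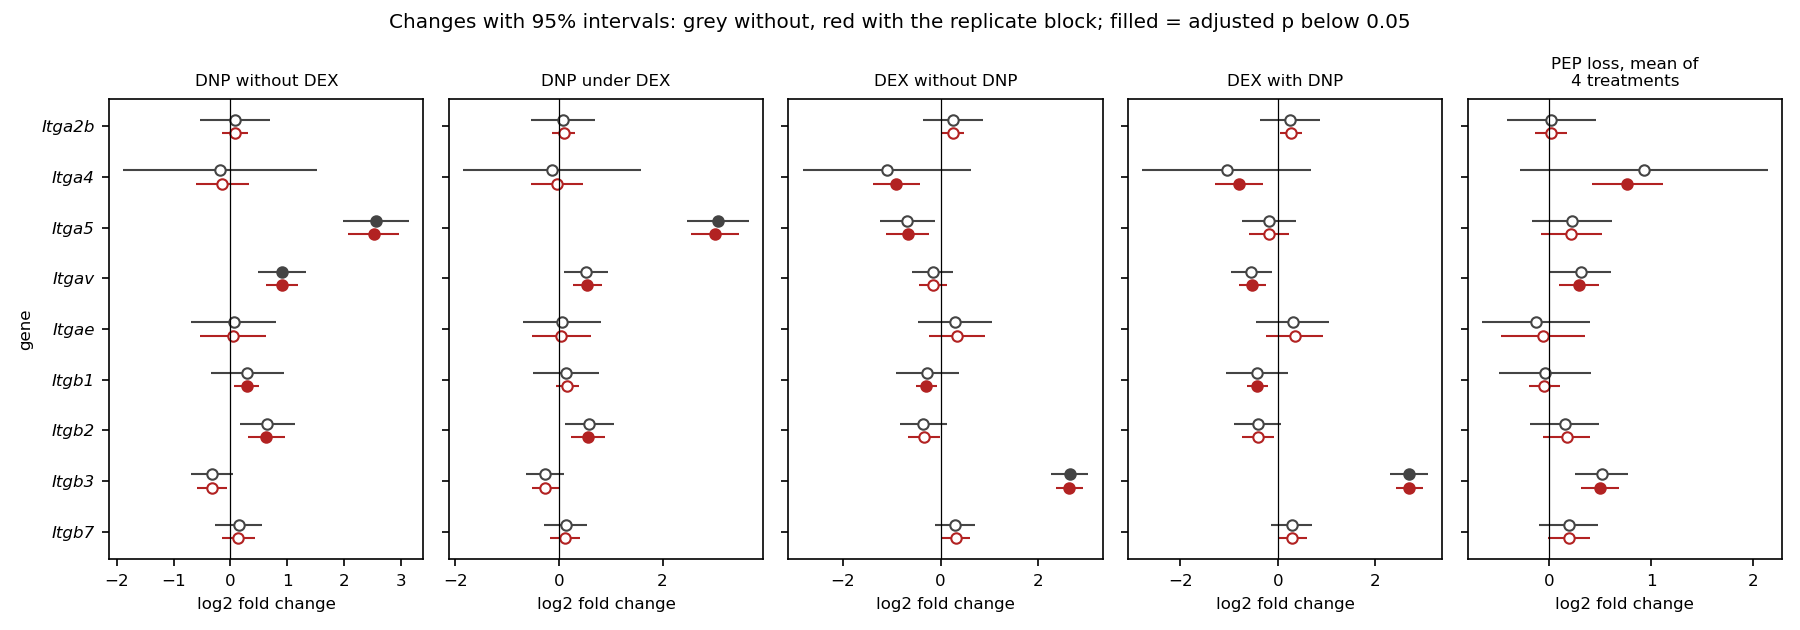
Log2 fold changes of the 9 tested members with 95% intervals in 5 comparisons, in grey without and in red with the replicate block, with filled points for an adjusted p under 0.05. Itga5 stands out for DNP and Itgb3 for DEX in both fits, and the intervals of Itga4, Itga2b and Itgb1 shrink most with the block.

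Whether DEX changed the response to DNP was tested as an interaction. None of the 9 tested members was called with or without the block, against 1.57% (0.496% higher, 1.07% lower) and 0.331% (0.0601% higher, 0.271% lower) of all tested genes. For Itga5 the change by DNP under DEX exceeded that without DEX by 0.51 (95% interval -0.28 to 1.29, adjusted p = 0.9999). For Itgav the difference was -0.38 (95% interval -0.98 to 0.22, adjusted p = 0.9999 without and 0.463 with the block).

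The ratio of α to β transcripts per kb followed these changes, as a description with no test. The ratio of Itga5 to Itgb1 had a median of 0.312 after IgE (0.272 to 0.441 over 4 samples) and of 1.61 after IgE DNP (0.933 to 2.70). After IgE DEX it was 0.265 (0.180 to 0.315) and after IgE DNP DEX 1.75 (1.09 to 3.71), so that Itga5 exceeded its partner in most samples with DNP and in none without it. For Itgav and Itgb3 the median ratio was 0.228 with IgE alone, 0.506 with DNP, 0.0331 with DEX and 0.0570 with both, and no sample of 1 treatment overlapped with another treatment. Itga2b exceeded Itgb3 by a median of 37.3 times with IgE alone, 47.7 times with DNP, 7.34 times with DEX and 10.6 times with both. With the longest transcript as the length, the medians for Itga2b and Itgb3 were 57.9, 74.2, 11.4 and 16.4. Itgae and Itga4 were far below Itgb7 in all samples, with ratios of 0.0125 to 0.0272 and 0.00258 to 0.0372. The α partners of Itgb2 were low as well, with means of 1.43 CPM per kb for Itgax, 0.659 for Itgal, 0.225 for Itgam and 0.00528 for Itgad.

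**Figure D4:**
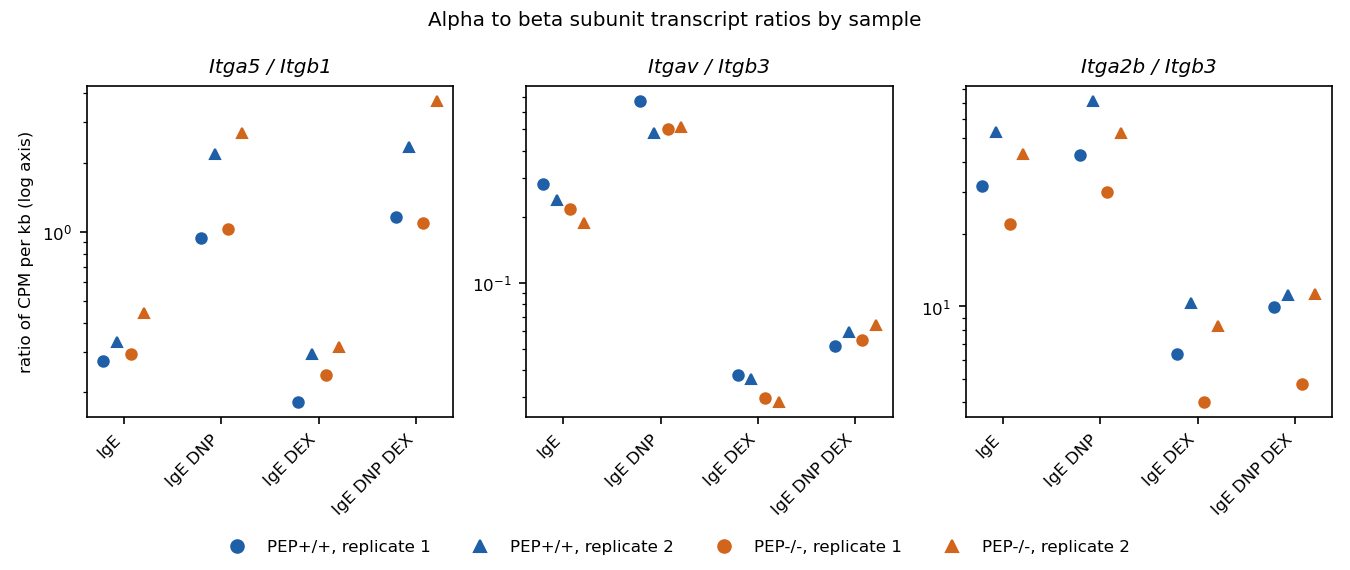
Ratio of α to β subunit transcripts in CPM per kb on log axes for 3 pairs, with 1 point per sample, blue for PEP+/+, orange for PEP-/-, circles for replicate 1 and triangles for replicate 2. Itga5 to Itgb1 is higher with DNP, and both ratios to Itgb3 are lower with DEX, in each sample.

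The comparison of PEP-/- with PEP+/+ asks whether the phosphatase alters these transcripts. Averaged over the 4 treatments, none of the 9 tested members was called without the block, against 1.59% of all tested genes (0.428% higher, 1.16% lower). With the block 3 members were called as higher in PEP-/- cells, Itgb3, Itga4 and Itgav, against 17.4% of all tested genes in either direction, 7.72% as higher and 9.64% as lower.

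For Itgb3 the difference was 0.51 (SE 0.12, adjusted p = 0.0558, edgeR) without and 0.50 (adjusted p = 0.00154) with the block, or 1.43-fold and 1.41-fold. PEP-/- samples were above PEP+/+ samples without overlap in each of the 4 treatments, as 1.32% of all tested genes were. All 8 of 8 same-numbered pairs were higher, by 0.08 to 0.84 with a median of 0.50 on the log2(CPM + 0.5) scale, against 6.38% of all tested genes. These pairs are the 4 treatments within each replicate set, whose samples resembled each other, so they are not 8 independent comparisons. They were 0.59 to 0.84 in replicate 1 and 0.08 to 0.41 in replicate 2. The block removes a set difference shared by the genotypes, not one that differs between them. With 1 sample left out at a time, the difference without the block ranged from 0.43 to 0.57 and was called in 1 of 16 fits (without PEP-/- IgE DNP DEX replicate 2, adjusted p = 0.045), with adjusted p of up to 0.158 in the others. DESeq2 gave 0.52 with an adjusted p of 0.00276. None of the fits for PEP loss, for any member, has a term for a set difference that differs between the genotypes. They count samples of the same genotype and set as independent, so their p-values can be too small. The change by DEX did not differ detectably between the genotypes (difference -0.01, SE 0.23, adjusted p = 0.9999).

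Itga4 was also higher in 8 of 8 pairs, by 0.25 to 1.77 with a median of 0.65. Its pairs likewise are not independent, at 0.59 to 1.77 in replicate 1 and 0.25 to 0.71 in replicate 2. Its difference was 0.93 (SE 0.56, adjusted p = 0.53) without and 0.77 (adjusted p = 0.0053) with the block. With 1 sample left out at a time, the former ranged from 0.51 (without PEP-/- IgE replicate 1) to 1.31 (without PEP+/+ IgE replicate 1). Itgav was higher in 7 of 8 pairs, with a difference of 0.31 (SE 0.14, adjusted p = 0.332) without and 0.29 (adjusted p = 0.0406) with the block. For the remaining members the differences were 0.22 for Itga5 (95% interval -0.17 to 0.61), 0.19 for Itgb7 (-0.10 to 0.48), 0.15 for Itgb2 (-0.19 to 0.49), 0.02 for Itga2b (-0.42 to 0.45), -0.04 for Itgb1 (-0.50 to 0.41) and -0.13 for Itgae (-0.66 to 0.40). Within each treatment no member was called in either fit. With 2 samples against 2, the whole table gave 0.00752% called in each treatment without the block, and 1.69%, 1.86%, 0.564% and 0.0225% with it, in the order IgE, IgE DNP, IgE DEX, IgE DNP DEX.

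No member was called in the interaction of genotype with DNP or with DEX, where edgeR called 0 genes of the whole table in either fit. At an unadjusted p under 0.05, edgeR without the block held 53 genes for DNP and 113 for DEX. With the block these counts were 260 and 644 of 13305 tested genes. Each count is below the share of 0.05 that no effect would give, so these tests cannot show that the genotypes respond alike. DESeq2 called 0 genes in both interactions.

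**Figure D5:**
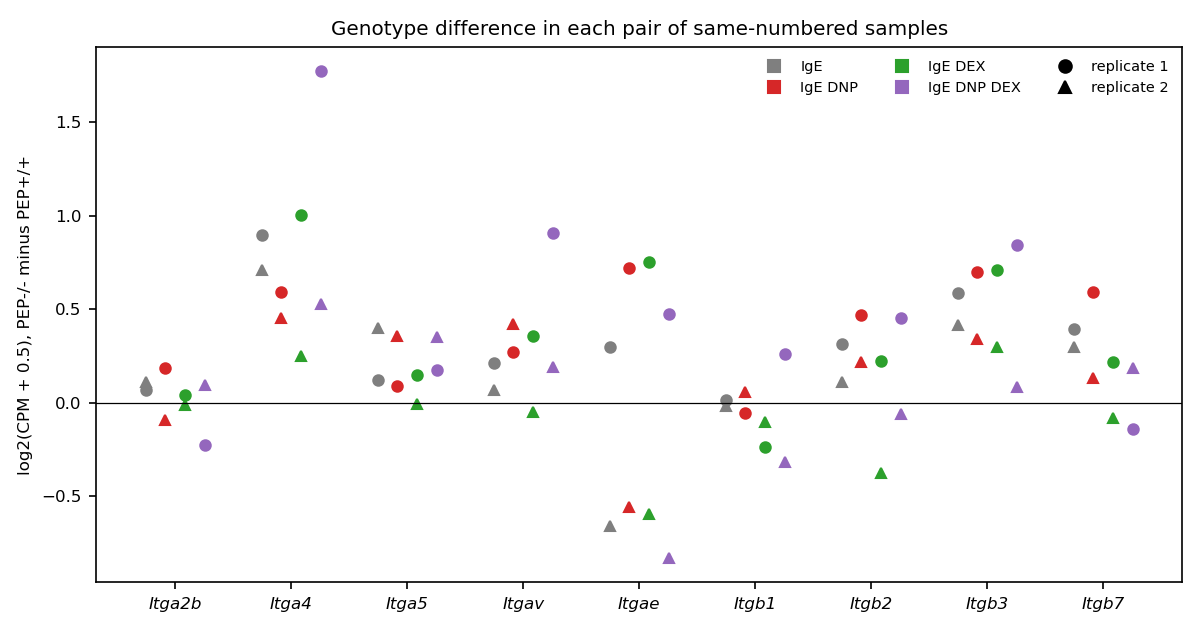
Difference between PEP-/- and PEP+/+ on the log2(CPM + 0.5) scale for each pair of same-numbered samples, with colours for the treatment, circles for replicate 1 and triangles for replicate 2. All 8 points of Itgb3 and of Itga4 lie above 0, and those of Itgae split by replicate.

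Sums of markers listed for other cell types moved with some of these comparisons. Whether mast cells or other cells made these transcripts was not tested. The 8 macrophage markers summed to 17.6 to 38.4 CPM in PEP+/+ and 29.9 to 56.1 CPM in PEP-/- samples, higher in PEP-/- within each treatment, led by Cd68, with C1qa at 0 and Mrc1 at 0 to 1 reads. The 8 megakaryocyte and platelet markers, which matter for Itga2b and Itgb3, summed to 258 to 356 CPM in PEP+/+ and 352 to 491 CPM in PEP-/- samples, also higher in PEP-/- within each treatment. Their sum was carried by Gp1ba and Vwf, while Ppbp had 0 reads, Pf4 had 0 to 3 and Gp6 had 0 to 1. The sum of the 4 basophil markers, led by Cd200r3, was 646 to 683 CPM with IgE alone, 833 to 1005 CPM with DNP, 344 to 485 CPM with DEX and 521 to 624 CPM with both. Median levels over all samples were 458 CPM for Cd200r3, 98.9 for Il3ra, 28.2 for Mcpt8 and 21.2 for Prss34. The 6 dendritic cell markers summed to 10.95 to 26.6 CPM in PEP+/+ and 21.2 to 29.8 CPM in PEP-/- samples and were higher in PEP-/- within each treatment. Nearly all of this sum was H2-Ab1 (10.3 to 28.4 CPM). H2-Aa had 0 to 2 reads, Flt3 0 to 9, Zbtb46 0 to 13, Xcr1 0 to 18 and Cd74 4 to 19. The 4 erythroid markers summed to 0.22 to 1.08 CPM without DEX and 0.915 to 6.51 CPM with it. The share of reads with several alignments was 21.5% to 25.6% after IgE and 30.3% to 37.8% after IgE DNP DEX. The part of these values in the results was not tested, and in bulk RNA fewer cells of a type and less RNA per cell cannot be told apart.

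Among 44 genes that activate integrins or link them to the cytoskeleton, 41 were tested, and DNP raised 12 and lowered 0, against 16.7% of all tested genes called. Their median change by DNP was 0.35, against -0.0007 over all tested genes. The largest increases were those of Bcar1 (2.98, adjusted p = 0.0137), which encodes the scaffold p130Cas, Fermt2 (2.80, adjusted p = 0.000403), which encodes kindlin-2, and Cd9 (1.34, adjusted p = 5.23e-05), a tetraspanin. Bcar1 had only 0 to 89 reads per sample. Under DEX, where 12.6% of all tested genes were called, DNP raised 9 and lowered 0, led by Bcar1 (2.74, adjusted p = 0.0259), Fermt2 (2.10, adjusted p = 0.00348) and Cd9 (1.72, adjusted p = 1.88e-05). With the block these counts were 18 higher and 1 lower without DEX, and 16 higher and 4 lower under DEX, against 37.9% and 37.6% of all tested genes called.

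DEX raised 2 of these 41 genes and lowered 4 without DNP, against 9.37% of all tested genes called. Tns1, which encodes tensin-1, an adaptor that binds β subunit tails, rose by 3.67 (adjusted p = 1.76e-05), and the kinase gene Lyn rose by 1.01 (adjusted p = 9.72e-05). Cd9 fell by 1.66 (adjusted p = 1.82e-05), Parvb, which encodes β-parvin, changed by -1.501 (adjusted p = 0.0193), and the kinase gene Src fell by 0.91 (adjusted p = 0.0195). With DNP, where 10.7% of all tested genes were called, DEX raised 2 and lowered 6, and Tns1 (3.49, adjusted p = 2.73e-05) and Lyn (0.98, adjusted p = 0.000151) were again the increases. The largest decreases were those of Cd9 (-1.28, adjusted p = 0.000136), Parvb (-1.27, adjusted p = 0.036) and Parvg (-1.10, adjusted p = 0.0383), which encodes γ-parvin. With the block the counts were 3 higher and 7 lower without DNP, and 3 higher and 16 lower with DNP, against 26.7% and 33.3% of all tested genes called. For PEP loss none of the 41 passed the test without the block, and with it 4 were higher and 0 lower. Of all tested genes, 17.4% were called with the block, 7.72% as higher and 9.64% as lower.

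Of the 17 other integrin subunits 8 were tested, and without the block 1 changed in the treatment comparisons. Itgb6, the β subunit that pairs with αv, fell by 1.72 with DNP (SE 0.49, adjusted p = 0.0349), at 4 to 75 reads per sample. With the block, DNP without DEX raised 1 and lowered 1, DNP under DEX lowered 1, DEX lowered 3 both without and with DNP, and PEP loss raised 1. The shares called over all tested genes were 37.9%, 37.6%, 26.7%, 33.3% and 17.4% in these comparisons.

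Of 20 integrin ligand genes 9 were tested. Fga, Fgb, Fgg, Vtn and Vcam1, which encode the fibrinogen chains, vitronectin and VCAM-1, had 0 reads in all 16 samples, and Fn1 had 0 to 3. Antigen raised Spp1, which encodes osteopontin, by 1.80 (adjusted p = 0.043) and Tgfb1, whose latent form binds αv integrins, by 1.15 (adjusted p = 0.00104). Under DEX only Tgfb1 rose among the ligand genes (0.97, adjusted p = 0.00428). DEX without DNP raised Lama5 (1.41, adjusted p = 0.0367), a laminin chain, and Mfge8 (0.79, adjusted p = 0.00914), which binds αv integrins, and lowered Icam1 (-0.75, adjusted p = 0.0245), a ligand of β2 integrins, and Tgfb1 (-0.69, adjusted p = 0.0305). With DNP, DEX raised Mfge8 (0.73, adjusted p = 0.0138) and lowered Tgfb1 (-0.86, adjusted p = 0.00952). With the block, DNP raised 4 of the 9 without DEX and 3 under DEX, and DEX raised 3 and lowered 3 without DNP and raised 2 and lowered 3 with DNP. For PEP loss no ligand gene passed without the block and 2 were higher with it. The shares called over all tested genes are those given for the other subunits with the block, and 16.7%, 12.6%, 9.37% and 10.7% without it in the treatment comparisons.

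The genes with the most similar pattern were found for the 3 members with the widest range of condition means, by Pearson's r over the 8 means of log2 CPM among 6049 genes. The means share libraries, so these values are a description. Itgb3 was closest to Prkch (r = 0.9988), which encodes protein kinase C eta, to Rnf150 (r = 0.9987) and to ENSMUSG00000044341 (r = 0.9957). Itga5 was closest to Ehd1 (r = 0.9938), which encodes a protein of endosomal recycling, to the tetraspanin gene Cd151 (r = 0.9936) and to Fbxo33 (r = 0.9931). Itga4 was closest to Ece1 (r = 0.9774), which encodes endothelin-converting enzyme, to Csgalnact1 (r = 0.9765), an enzyme of chondroitin sulfate synthesis, and to the receptor gene Notch2 (r = 0.9757).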

How the data were processed

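Per the labels and the study's methods, polyA RNA libraries (TruSeq stranded mRNA kit) of BMMCs were sequenced, and the authors used TopHat2 for alignment to GRCm38 and HTSeq for counting per gene. The deposited values are raw counts, with 5 further rows for reads assigned to no gene, which were left out of library sizes. Genome positions and exon lengths came from GENCODE M21, in which 37693 of 39179 gene identifiers (96.21%) were found.

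Counts were scaled by TMM to CPM and fitted by glmQLFit and glmQLFTest of edgeR 4.0.16 (R 4.3.3) on all 16 samples with 1 mean per condition. Genes were kept by filterByExpr with a minimum count of 10. Total counts lay between 8612531 and 22143526 (median 12814043.5), and reads carry no molecular identifiers, so limits cover counting error only. Replicates of a condition differed by more than counting noise (chi-square per degree of freedom 50.4 to 149.5), so all were kept. The block used the labels' numbered and lettered samples as sets. Deviations of same-set samples from their condition means were correlated over 0.1 in 28 of 28 pairs of conditions (0.453 to 0.799), so the sets were taken as pairing the samples. The labels do not say what a set shares.

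The members and gene lists were chosen with earlier results of these data known. Named genes were all members, up to 3 list genes per direction and contrast, partner genes, the closest patterns, Ptpn22 and 4 treatment checks, and list genes at 0 reads and marker genes were named after their values were seen. The alternatives were DESeq2 1.42.0, its size factors in edgeR, no filter, 10 counts or more in each sample, the replicate block, only the compared conditions, each sample left out, the longest transcript and Spearman's rho. The scripts were tested on simulated data.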

Additional observations from a re-analysis of the deposited data

Results flagged for a closer look

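For Itga4 and Itgae, the same-numbered differences by DNP under DEX had opposite signs in the genotypes, with some values near 0. The share of all tested genes with such a split was not counted. On the log2(CPM + 0.5) scale those of Itga4 were -0.617 and -0.0323 in PEP+/+ replicates 1 and 2, and 0.151 and 0.242 in PEP-/- replicates 1 and 2. Those of Itgae were 0.137 and 0.227 in PEP+/+, and -0.139 and -0.0075 in PEP-/-. The difference between the genotypes under DEX alone was not tested. The test over both DEX settings gave 0.15 (SE 1.102) for Itga4 and -0.05 (SE 0.49) for Itgae, with an adjusted p of 1 for each (edgeR).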

How the results depend on the processing

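The increases of Itga5 by DNP, of Itgav by DNP without DEX and of Itgb3 by DEX kept direction and call under every alternative run. With the replicate block, the members called were 4 for DNP without DEX, 3 for DNP under DEX, 4 for DEX without DNP, 4 for DEX with DNP and 3 for PEP loss, and the calls of all tested genes rose from 2216 to 5042, 1678 to 5007, 1247 to 3548, 1418 to 4429 and 212 to 2310. For PEP loss within a treatment, the block moved all-gene calls from 1 each to 225 (IgE), 248 (IgE DNP), 75 (IgE DEX) and 3 (IgE DNP DEX), and those of the DNP by DEX interaction from 44 to 209. Without a filter the members called were 3 for DEX without DNP (Itga4 and Itga5 added), 2 for DEX with DNP (Itga4 added), 2 for averaged PEP loss (Itga4 and Itgb3) and 1 for PEP loss after IgE DNP DEX (Itga4). In that fit the SE of Itga4 for DEX without DNP was 0.22, against 0.78 with the filter. Those of Itga5, Itgb1 and Itgb3 there were 0.20, 0.20 and 0.22, so calls without a filter hardly weigh the spread of each member. DESeq2 called 1 member for averaged PEP loss (Itgb3), as did the filter of at least 10 counts, and only the compared conditions gave 2 for DEX without DNP (Itga5 added). Itgb2 for DNP without DEX was called by DESeq2 (adjusted p = 0.0343) and when no filter was used (0.0212). The block changed no other call of a member. All-gene calls for averaged PEP loss were 668 with DESeq2 and 472 without a filter. The cause of these shifts was not tested. With each sample left out, the members called ranged from 2 to 3 for DNP without DEX, from 1 to 2 for DNP under DEX and from 0 to 1 for averaged PEP loss, and the all-gene calls from 1390 to 1812, 927 to 1584 and 57 to 203. The DNP by DEX difference of Itgb3, never called, ranged from -0.0692 to 0.212. Among 87 member results called neither with nor without the block, signs changed in 4 with the block, 2 with DESeq2 and 5 without a filter, and in 211 of 792 values with 1 sample left out, so that 58 of the 87 changed sign in at least 1 fit. With Spearman's rho, 3 of the 9 closest genes were shared. With the longest transcript, 8 of 10 members kept their rank. Depth limits Itga2 (0 to 12 reads), and 2 samples per condition limit contrasts within a treatment.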

Other observations

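Itgae, the αE chain that pairs with β7, differed between the genotypes in opposite directions in the replicate sets. In replicate 1 it was higher in PEP-/- than in PEP+/+ cells in all 4 treatments, with 17.5 against 14.1 CPM after IgE and 26.3 against 18.8 CPM after IgE DNP DEX. In replicate 2 it was lower in all 4 treatments, with 17.7 against 28.2 CPM after IgE and 19.2 against 34.5 CPM after IgE DNP DEX. Of all tested genes, 0.812% had opposite signs in the sets in this way. Haspin lies within the bounds of Itgae on the opposite strand without shared exon bases, and had 74 to 479 reads.

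Ilk, which encodes integrin-linked kinase and was singled out after its values were seen, had 0 to 24 reads per sample. Its annotated span overlaps that of Taf10 on the opposite strand, which had 464 to 1412 reads, so its level is uncertain here.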
